A study of Mus musculus with 8 samples.

Results

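The probes described here are DNA oligonucleotides in which the only place where pyrimidines lie side by side is 1 uninterrupted run of thymines, 3 to 8 bases long. They were found by sequence alone. A probe was kept if its last 24 bases were those shared by nearly all probes, and its pyrimidine runs (stretches of 2 or more adjacent T or C) were listed on the printed strand and on the reverse complement. A member had exactly 1 run over both strands, made of T only. Of 122095 different sequences, 122086 had the shared end, 14650 of these had exactly 1 run, and 616 were members. The run had 3 thymines (T3) in 356 members, 4 in 168, 5 in 56, 6 in 26, 7 in 8 and 8 in 2. It lay on the printed strand in 299 members, and on the complement, where the printed strand reads as adenines, in 317. A probe has 60 bases, of which 25 vary and 35 are shared. Since no other pyrimidines may touch, the rest of the probe alternates purine and pyrimidine on both strands, and the base on either side of the run can only be A or G. Read 5′ to 3′ on the strand that carries the thymines, 152 members had A on both sides, 206 had A before and G after, 109 had G before and A after, and 149 had G on both sides.

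The study stained a DNA array of universal design with antibodies against UV damage. A mouse antibody against cyclobutane pyrimidine dimers (CPDs) was used at a ratio of 1:400, and a mouse antibody against 6-4 photoproducts (6-4PPs) at 1:80. Both carry the same kind of fluorescent label. Each was applied to 2 UV-irradiated arrays and 2 arrays labelled Non-UV, so 8 arrays form 4 groups of 2. The labels and headers used here state neither the UV dose nor the staining, nor how the strand opposite the printed one came about, and nothing in them says that the 2 arrays of a group are independent preparations. The antibodies were used at different ratios, so a difference between them in absolute brightness cannot be told apart from a difference in staining. The same holds for a difference between them in the size of a log2 UV effect.

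Ultraviolet light joins neighbouring pyrimidines of 1 strand. In a CPD a small carbon ring links both bases, and thymine pairs are the classic site. In a 6-4PP a bond runs from the 5′ base to the 3′ base of the pair, and this lesion is known for forming readily where the 3′ base is cytosine. Runs of thymine hold several overlapping pairs, so the number of possible lesions grows with the run, although each base can take part in only 1 of them at a time.

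The members with the longest runs are printed here because each holds a long stretch of thymines and no other pair of adjacent pyrimidines. Capitals mark the run, as T on the printed strand or as A where the thymines lie opposite; the 25 varying bases are given 5′ to 3′ and the shared end is left out. The letters after the strand are the bases 5′ and 3′ of the run on the strand of the thymines.
T8 printed, A-G: tatgcaTTTTTTTTgtatgtatgca
T8 complement, A-G: cgtatgcAAAAAAAAtatgtatgca
T7 printed, A-A: gtatgcaTTTTTTTatatgtatgca
T7 printed, A-G: gtatgcaTTTTTTTgtatgtatgca
T7 printed, G-G: gtatgcgTTTTTTTgtatgtatgca
T7 complement, A-A: gtatgcatAAAAAAAtatgtatgca
T7 complement, A-G, probe a: gtatgcAAAAAAAtatgtacgcgca
T7 complement, A-G, probe b: gtatgcAAAAAAAtgtatgtatgca
T7 complement, A-G, probe c: gtatgcacAAAAAAAtatgtatgca
T7 complement, G-G: gtatgcAAAAAAAcgtatgtatgca

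A set of 4 T6 probes on the printed strand differs in nothing but the 2 bases beside the run, and shows the effect of those bases within 1 context.
T6 printed, A-A: cgtatgcaTTTTTTatatgtatgca
T6 printed, A-G: cgtatgcaTTTTTTgtatgtatgca
T6 printed, G-A: cgtatgcgTTTTTTatatgtatgca
T6 printed, G-G: cgtatgcgTTTTTTgtatgtatgca

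A last set holds a T3 probe of each strand and the probes that differ from it in 1 base, either a G in place of the A 5′ of the run or a C in place of 1 thymine. On the complement a cytosine appears as a printed G. The T3 probe is the one nearest the medians of its class among those with every partner on the array, a choice made after the values were seen.
TTT printed: gtatgcaTTTgcatgtatgtatgca
TTT printed, 5′ G: gtatgcgTTTgcatgtatgtatgca
CTT printed: gtatgcaCTTgcatgtatgtatgca
TCT printed: gtatgcaTCTgcatgtatgtatgca
TTC printed: gtatgcaTTCgcatgtatgtatgca
TTT complement: gtatgcAAAtgtatgtatgtatgca
TTT complement, 5′ G: gtatgcAAAcgtatgtatgtatgca
CTT complement: gtatgcAAGtgtatgtatgtatgca
TCT complement: gtatgcAGAtgtatgtatgtatgca
TTC complement: gtatgcGAAtgtatgtatgtatgca

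Values are intensities as adjusted and deposited by the authors, averaged over the spots of a sequence. The reference on each array is the median of the 550 probes that hold no pyrimidine run on either strand, called the no-step level. A level is the log2 of a probe's intensity over that reference, and the UV effect is the level on UV arrays minus the level on Non-UV arrays. Of the members, 479 were printed in 1 spot and 45 in 5 or more, where the SD over copies on 1 array was 0.11 to 0.26 (log2, median over these 45). The number of arrays limits the precision. Arrays with the same replicate number and the same UV state shared their deviations across the antibodies: over all probes, the deviations from the group mean correlated at 0.71 between the UV arrays of both antibodies and at 0.77 between the Non-UV arrays, against 0.00 between UV and Non-UV arrays. Over the members alone the values were 0.70 and 0.68. The cause was not tested, but the 8 arrays are not 8 independent measurements and p-values of the CPD and 6-4PP comparisons are not independent of each other. A few spots were bright on 1 array number with both antibodies. The 2 arrays of a group differed by over 4-fold in 2 members for CPD after UV, both also among the 4 such members for 6-4PP after UV, and in 2 and 4 members on the Non-UV arrays, with 1 in common. Medians over a class are therefore used wherever a class is compared.

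Without UV the members could not be told from probes without a run. Their median intensity was 1204 and 1040 with the CPD antibody, beside 1219 and 1048 for the no-step probes on the same arrays, and 1510 and 1240 with the 6-4PP antibody, beside 1497 and 1246. The class medians of all lengths and strands lay between -0.10 and 0.12 log2 from the no-step level on the CPD arrays and between -0.20 and 0.31 on the 6-4PP arrays. Across members the replicate arrays correlated at 0.02 and 0.05 without UV, and at 0.93 and 0.89 after UV, so the members differed reproducibly from each other only on the UV arrays.

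After UV the median member gave 5802 and 4973 with the CPD antibody, where the no-step probes gave 1617 and 1603. That is a level of 1.74 ± 0.15 (SD, n = 2 arrays), or 3.34-fold. With the 6-4PP antibody it gave 3024 and 3007 over a reference of 1954 and 1951, a level of 0.63 ± 0.0043, or 1.54-fold. For CPD the median member stood at percentile 63.1 of all probes, and at percentile 18.4 for 6-4PP. The CPD UV effect passed the threshold (adjusted p under 0.05, limma, over all sequences) in 603 members, or 97.9%, all higher, where 70.5% of all probes were called higher. The 6-4PP UV effect was called higher in 421 members, or 68.3%, below the 86% of all probes, and lower in 4, where 0.203% of all probes were called lower. The median UV effect over members was 1.71 for CPD beside 1.11 over all probes, and 0.60 for 6-4PP beside 1.71 over all probes. Most probes carry several pyrimidine pairs (the median is 5 steps over both strands). When each array was instead centred on the median of all probes, 354 members were called higher and 45 lower for CPD, beside 39.5% and 40.2% of all probes. For 6-4PP, 42 were called higher and 455 lower, beside 36.4% and 39.9%. With quantile normalization, which gives all 8 arrays 1 distribution, 318 members were called higher for CPD and 74 for 6-4PP, beside 28.6% and 36.4% of all probes.

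The UV effect was larger for CPD than for 6-4PP in 494 members, or 80.2% (10.6% of all probes were called this way), and larger with 6-4PP in 0 (36.9% of all probes). With quantile normalization 0 members and 0% of all probes were called either way, so that setting does not bear on the members. The median difference was 0.97 log2 over members and -0.34 over all probes. By 5′ base, 6-4PP was called higher in 329 of 358 members after A but in 92 of 258 after G, whereas CPD was called higher in 354 and 249. On the complement after G, 19 of 127 members were called higher for 6-4PP and 119 for CPD. Over all probes, 86% were called higher for 6-4PP and 70.5% for CPD.

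On the printed strand the CPD signal rose with length from T3 to T5, and on the complement from T3 to T4. The steps from there to T6 did not pass, and those to T7 and T8 were not tested. On the printed strand, the CPD class medians on the 2 UV arrays were 9604 and 8564 for T3, 11599 and 11019 for T4, 13336 and 13673 for T5, and 14900 and 12812 for T6. The T5 values exceeded both T4 values, while T5 and T6 overlapped. On the complement they were 3504 and 3252 for T3, 4140 and 3734 for T4, 4190 and 4232 for T5 and 4467 and 4245 for T6. There the arrays of T3 and T4 did not overlap, and those of T5 and T6 did not differ beyond their spread. The medians of the 8 T7 and 2 T8 members lay above those of T6: T7 gave 17770 and 15883 on the printed strand and 6335 and 5360 on the complement. T8, 1 probe a strand, gave 19217 and 18233, and 5956 and 5621. Flanks differed, since both T8 probes had A 5′ of the run while the T6 medians include runs after G. The T8 levels (3.54 printed, 1.85 complement) lay within those of T6 members after A (3.06 to 3.64 and 1.09 to 2.49). So did the levels of the T7 members after A. Of the 5 complement T7 probes, A-A gave 6722 and 5907, probe a 5872 and 5360, probe b 7181 and 3866, probe c 6335 and 7440, and G-G 4121 and 2814. The G-G probe was the lowest of them on both arrays, and probe b differed most between its arrays. With the 6-4PP antibody, printed T3 gave 5410 and 5311, T4 6026 and 6359, T5 5726 and 6525, T6 5585 and 6579. The T8 probe gave 7195 and 6942. Complement runs gave 2647 and 2626 for T3, 2637 and 2741 for T4, 2765 and 2965 for T5, 3027 and 3151 for T6, and 2225 and 2464 for T8. T7 gave 7929 and 7943 on the printed strand and 2858 and 2892 on the complement. The 6-4PP arrays of T4, T5 and T6 overlap on the printed strand. On the complement they rise in order without overlap, but neither step passed, and the single T8 probe lies lowest.

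Among the 27 contrasts of class medians that involve the members, 16 passed the threshold for CPD (50.9% of 428 such contrasts over all run types), 17 for 6-4PP (71.3%) and 13 for the antibody difference (42.3%). These shares are near the background, so the counts say nothing particular about thymine runs, and the sizes are what is given here. For CPD, T4 exceeded T3 by 0.32 ± 0.049 (SE) on the printed strand (adjusted p = 0.0014) and by 0.22 ± 0.041 on the complement (adjusted p = 0.0039). T5 exceeded T4 by 0.29 ± 0.068 on the printed strand (adjusted p = 0.011), a call lost without array 1 of the CPD Non-UV group (0.24) or array 2 of the CPD UV group (0.23). On the complement T5 over T4 was 0.09 ± 0.055 (adjusted p = 0.22), which did not pass. T6 over T5 was 0.02 ± 0.081 on the printed strand and 0.08 ± 0.053 on the complement, and neither passed. For 6-4PP, T4 over T3 on the printed strand was 0.18 ± 0.049 (adjusted p = 0.013). That call was lost without array 2 of the 6-4PP Non-UV group (0.16) or array 2 of the 6-4PP UV group (0.13), and quantile normalization turned its sign (-0.01). The other 6-4PP steps from T4 on did not pass.

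The length classes hold runs after A and after G. Contrasts within 1 flank, and pairs of probes that differ in 1 base, were added after the values were seen. Of 104 such contrasts on the members, 75 passed for CPD (33.3% of 825), 61 for 6-4PP (44.6%) and 63 for the antibody difference (29.3%). Many of them use the same probes. With quantile normalization the counts were 19, 11 and 12.

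From TT to T3 the signals of the antibodies changed differently, and the change depended on the 5′ base. Lone TT probes, of which the array has 933, serve as the comparison. After A, printed TT gave a CPD level of 2.76 ± 0.097 (SD, n = 2) and printed T3 2.82 ± 0.076, a change in UV effect of 0.04 ± 0.036 (SE) that did not pass. For 6-4PP the level was 2.47 ± 0.039 for TT and 1.91 ± 0.071 for T3, and the UV effect fell by 0.55 ± 0.036 (adjusted p = 1.9e-06). The complement gave 1.05 ± 0.021 and 0.65 ± 0.015, a fall of 0.40 ± 0.034 (adjusted p = 1.2e-05), with no change called for CPD (0.02 ± 0.034). After G the CPD UV effect rose from TT to T3, by 0.50 ± 0.046 on the printed strand (adjusted p = 2.5e-05) and by 0.33 ± 0.044 on the complement (adjusted p = 0.00033). The 6-4PP effect after G rose by 0.14 ± 0.046 on the printed strand (adjusted p = 0.036), a call that did not hold without any of the 4 6-4PP arrays or either CPD Non-UV array and whose sign turned with quantile normalization (-0.03). On the complement the 6-4PP change of 0.12 did not pass. Tested directly, the change from TT to T3 was lower after A than after G by 0.46 ± 0.054 for CPD and 0.69 ± 0.054 for 6-4PP on the printed strand. On the complement those differences were 0.31 ± 0.051 and 0.51 ± 0.051, and all 4 passed (adjusted p from 6.7e-06 to 0.0014).

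From TT to T5 the antibodies moved apart. After A, CPD rose by 0.59 ± 0.046 on the printed strand (adjusted p = 7.6e-06) while 6-4PP fell by 0.45 ± 0.046 (adjusted p = 3.8e-05). The complement gave 0.26 ± 0.057 and -0.37 ± 0.057, and both passed. After G, CPD rose by 1.07 ± 0.068 on the printed strand and 0.65 ± 0.044 on the complement. The 6-4PP rise after G was 0.27 ± 0.068 on the printed strand (adjusted p = 0.0099), lost without array 1 of the 6-4PP Non-UV group (0.23), and 0.11 ± 0.044 on the complement, which did not pass. From T3 to T4 and from T4 to T5, none of the 8 6-4PP changes within a flank passed (-0.04 to 0.14). CPD still rose from T3 to T4 on the printed strand by 0.20 ± 0.037 after A and 0.22 ± 0.052 after G. The latter call was lost without array 2 of the CPD Non-UV group (0.19).

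The ladder of T3, T5 and T7 probes that start alike and have A before and G after the run shows this within 1 context.
T3, A-G: gtatgcaTTTgtgtgtatgtatgca
T5, A-G: gtatgcaTTTTTgtgtatgtatgca
T7, A-G: gtatgcaTTTTTTTgtatgtatgca
With CPD, T3 gave 12110 and 11623 after UV, T5 16005 and 14776, and T7 17770 and 15883. Each probe lay above the shorter one on the same-numbered array. With 6-4PP, the same probes gave 7890 and 8249, 8976 and 8169, and 7929 and 7943, with no order by length. The T3 probe's Non-UV array 1 was bright with both antibodies (4162 for CPD, 9780 for 6-4PP).

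Divided by the number of possible pairs, the signal was lower in longer runs up to T6. The CPD intensity above the no-step level, divided by the number of TT steps in the run, was 6991 ± 623 (SD, n = 2) for printed TT, 3737 ± 363 for T3, 3233 ± 133 for T4, 2974 ± 62 for T5 and 2449 ± 293 for T6. Complement runs gave 1608, 884, 776, 650 and 549. For 6-4PP, the printed values went from 5695 ± 307 for TT to 1704 ± 34 for T3 and 826 ± 141 for T6.

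The strand that carried the run made a larger difference than any single step in its length. Runs on the printed strand gave CPD effects above those on the complement by 1.40 ± 0.032 (SE) for T3, 1.49 ± 0.051 for T4, 1.69 ± 0.041 for T5 and 1.63 ± 0.069 for T6. For 6-4PP the differences were 0.98 ± 0.032, 1.15 ± 0.051, 1.07 ± 0.041 and 0.99 ± 0.069, and all 8 passed (largest adjusted p = 7.9e-06). The CPD difference was the larger in each length, by 0.34 to 0.64 (adjusted p at most 0.008). Within 5′ A the CPD difference was 1.52 to 1.82 and the 6-4PP difference 1.18 to 1.31. Within 5′ G the CPD difference was 1.11 to 1.35, and that of 6-4PP 0.27 to 0.40. There the median 6-4PP UV effect was low on both strands (0.42 printed, 0.13 complement). Quantile normalization turned the sign of the 6-4PP difference for T3 (-0.14) and T4 (-0.16). The T5 call of 0.40 was lost without array 1 of the 6-4PP Non-UV group (0.37) or array 1 of the 6-4PP UV group (0.34). Printed T3 runs start between bases 4 and 20 of the probe and complement T3 runs between 3 and 19. The cause of the strand difference was not tested.

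The base 5′ of the run went with a larger difference in the 6-4PP signal than in the CPD signal on the printed strand. Among printed T3 members, those after A had a 6-4PP median of 7071 and 7572, and those after G 2580 and 2667. For CPD the same groups gave 11850 and 10901, and 6699 and 5669. The arrays of both flanks did not overlap for either antibody. The UV effect after A exceeded that after G on the printed strand by 0.87 ± 0.047 (SE) for T3, 0.86 ± 0.068 for T4 and 0.86 ± 0.076 for T5 with CPD, and by 1.47 ± 0.047, 1.42 ± 0.068 and 1.44 ± 0.076 with 6-4PP. For complement runs the CPD differences were 0.47, 0.45 and 0.39, and those of 6-4PP 0.50, 0.51 and 0.53. All 12 passed (largest adjusted p = 0.00014). Printed, 6-4PP depended more on the 5′ base than CPD did, by 0.60 ± 0.066 for T3, 0.57 ± 0.096 for T4 and 0.58 ± 0.11 for T5 (adjusted p = 0.00044, 0.0031 and 0.0051), but the T5 difference turned with quantile normalization (0.13). For complement runs the antibodies were not called different in this (0.03 to 0.15). Complement members after G had a median 6-4PP UV effect of 0.13. Whether so low a signal limits the gap was not tested.

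Pairs of probes identical but for the 5′ base gave the same picture: on the printed strand, A over G was 0.85 ± 0.046 in 64 pairs of T3, 0.91 ± 0.055 in 32 pairs of T4 and 0.87 ± 0.095 in 10 pairs of T5 for CPD, and 1.46 ± 0.046, 1.47 ± 0.055 and 1.36 ± 0.095 for 6-4PP. Complement pairs gave 0.37, 0.45 and 0.46, and 0.42, 0.55 and 0.57. For lone TT such pairs differed by 1.28 ± 0.038 for CPD and 2.19 ± 0.038 for 6-4PP on the printed strand, so the dependence on the 5′ base was larger with 2 thymines than with 3. In the T6 quartet, the A-A probe gave 19752 and 20533 with CPD, A-G 16941 and 14085, G-A 13050 and 10848, and G-G 8335 and 5404. With 6-4PP the same probes gave 7997 and 8973, 8049 and 7241, 3155 and 2619, and 3112 and 2323. Both probes after G lay below both after A with each antibody. In the T7 printed pair that differs only in the 5′ base, A-G gave 17770 and 15883 and G-G 15422 and 12925 with CPD, but 7929 and 7943 against 3967 and 3233 with 6-4PP.

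The base 3′ of the run mattered less. In matched pairs on the printed strand, A over G was 0.30 ± 0.038 for CPD in T3 (adjusted p = 0.00021) and 0.25 ± 0.047 in T4 (adjusted p = 0.0031). For 6-4PP the T3 value was 0.01 ± 0.038, and 0.13 ± 0.047 in T4 (adjusted p = 0.049), a call lost without any 1 of the 4 6-4PP arrays (0.11 to 0.15) and without either CPD UV array. Unmatched, 6-4PP of printed T3 was lower before A by 0.28 ± 0.032 (adjusted p = 0.00016); the matched pairs do not show it, and it was lost with class means (-0.04). On the complement the CPD value in T4 was -0.11 ± 0.034 (adjusted p = 0.035), lost without any 1 of the 4 CPD arrays (-0.13 to -0.09) and turned by quantile normalization (0.02). Bases further away, from 2 to 5 places on either side, gave differences between -0.25 and 0.19 for CPD and 6-4PP alike in 24 matched contrasts, of which 5 and 5 passed.

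The place of the run went with its flank mainly on the complement. Of the T3 runs there, 67 of 141 outer and 39 of 43 inner ones came after A. On the printed strand 61 of 106 outer and 32 of 66 inner ones did. Printed T3 runs in the outer part of the varying region exceeded inner ones by 0.79 ± 0.031 for 6-4PP (adjusted p = 3.9e-07), but among sequences printed in 1 spot the value was -0.07. Within 1 flank it was 0.10 ± 0.042 after A and 0.02 ± 0.035 after G, neither of which passed. On the complement, outer T3 runs were lower than inner ones by 0.48 ± 0.050 for CPD and 0.45 ± 0.050 for 6-4PP, and both passed. Among those after A, outer runs were lower by 0.27 ± 0.039 for CPD (adjusted p = 0.00061) and 0.19 ± 0.039 for 6-4PP (adjusted p = 0.0031). The last of these turned sign in the unadjusted intensities (0.02).

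Replacing 1 thymine by cytosine lowered the CPD effect at every place and mostly raised the 6-4PP effect. The 24 contrasts of matched pairs (3 places in T3, 4 in T4 and 5 in T5, on each strand) gave a higher CPD effect for the thymine run in all 24, by 0.20 to 2.19, and all 24 passed. For 6-4PP the thymine run was lower in 16, higher in 2 and not called in 6. In T3 on the printed strand, the thymine run exceeded TCT by 2.19 ± 0.045 for CPD (adjusted p = 3.4e-09), CTT by 0.50 ± 0.035 and TTC by 0.43 ± 0.040. The TCT variant has no TT step, while CTT and TTC keep 1. For 6-4PP, TTT was 1.34 ± 0.035 below CTT (adjusted p = 7.8e-09) and 0.41 ± 0.040 below TTC, but 0.53 ± 0.045 above TCT. On the complement the same values were 0.97, 0.33 and 0.60 for CPD and 0.15, -0.77 and -0.09 for 6-4PP. The last of these did not pass, and that against TCT was lost without array 2 of the 6-4PP Non-UV group (0.13) or array 1 of the 6-4PP UV group (0.14).

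The printed T3 example shows the signs of these differences, but not the order of CTT and TTC for 6-4PP. With CPD the UV arrays gave 12472 and 11000 for TTT, 5104 and 7273 for CTT, 1776 and 1820 for TCT, and 8706 and 9450 for TTC. With 6-4PP they gave 7085 and 7673 for TTT, 9308 and 10715 for CTT, 3716 and 3901 for TCT, and 10759 and 12589 for TTC. On both arrays TTT lay above CTT and TTC with CPD and below both with 6-4PP, while TTC lay above CTT with each antibody. For 6-4PP the matched pairs gave the other order: TTT was 1.34 below CTT (158 pairs) and 0.41 below TTC (156 pairs). The same TTT with G before it gave 6567 and 9285 for CPD and 2618 and 4434 for 6-4PP. In the complement example, TTT gave 4074 and 3601 with CPD, CTT 3047 and 1825, TCT 1956 and 2111, and TTC 3326 and 1905. With 6-4PP these probes gave 3278 and 2960, 3860 and 2279, 2456 and 2740, and 4341 and 3406. The arrays of these single probes overlap for CTT with 6-4PP, where the class result rests on 174 pairs.

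In longer runs the place of the cytosine mattered. In T4 on the printed strand the thymine run was below TCTT by 0.71 ± 0.034 for 6-4PP, and below CTTT, TTCT and TTTC by 0.37, 0.39 and 0.24. In T5 on the printed strand the largest gap was to TTCTT, at 1.21 ± 0.058, where the gaps to CTTTT and TCTTT were 0.30 and 0.23. TTTCT and TTTTC were not called different (0.04 and -0.05 for the thymine run minus the variant). For CPD, the smallest advantage of printed T5 was also over TTCTT, at 0.20 ± 0.058 (adjusted p = 0.027). That call was lost without array 1 of the CPD Non-UV group (0.16) or array 2 of the CPD UV group (0.14). On the complement the smallest CPD advantage was over TTTCT (0.33), beside 0.34 over TTCTT. There the thymine run was 0.42 below TTCTT for 6-4PP. TTCTT holds 2 TT steps, and T5 holds 4.

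Set against all lone runs of the same length that hold a TT step and at least 1 cytosine, thymine-only runs were higher for CPD by 0.51 (T3), 0.88 (T4), 1.11 (T5) and 1.07 (T6) on the printed strand and by 0.43 to 0.78 on the complement. For 6-4PP they were lower by 0.88, 0.46, 0.49 and 0.51 on the printed strand, and by 0.23 to 0.49 on the complement. All 16 passed (adjusted p at most 0.0048), as did the 8 antibody differences, which were 0.89 to 1.60. Against cytosine-only runs of the same length, thymine runs were higher with both antibodies, by 1.07 to 3.12 for CPD and 0.35 to 1.31 for 6-4PP, and all 16 passed. Cytosine runs stood at a CPD level between -0.01 and 0.06 after UV.

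Among T6 members, the ranges after A and after G did not overlap for CPD or 6-4PP on the printed strand. On the printed strand after A, 8 members had CPD levels of 3.06 to 3.64 and 6-4PP levels of 1.35 to 2.12. After G, 5 members had 2.06 to 2.98 and 0.46 to 0.70. On the complement after A, 9 members had 1.09 to 2.49 and 0.58 to 1.35, and after G, 4 members had 1.25 to 1.36 and 0.01 to 0.55. The highest and lowest printed T3 members show the range on the printed strand. The highest printed one for CPD was
T3 printed, A-A: atgcacgtgcaTTTacgtatgcgca
with 19974 and 16184 after UV, and the lowest was
T3 printed, G-G: gtatgcgTTTgcgtgtatgtatgca
with 4005 and 3813. The lowest printed T3 for 6-4PP, also a G-G probe, gave 1859 and 1823, under the no-step level. The highest printed T5 with both antibodies had A on both sides, with 19508 and 19009 for CPD and 10757 and 10827 for 6-4PP.

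Some extremes rest on 1 spot of 1 array. The complement T3 probe with the highest levels gave 72620 and 3624 for CPD and 57607 and 6304 for 6-4PP, so both antibodies were bright on arrays numbered 1. The highest complement T4 probe gave 5935 and 69977 for CPD and 5545 and 33855 for 6-4PP, bright on arrays numbered 2. A complement T6 probe gave 55609 and 63064 on the Non-UV arrays numbered 2, beside 1244 and 1533 on those numbered 1, and its CPD effect was not called. Each of these values differs many-fold between the arrays of 1 group. The largest antibody difference, 3.22 ± 1.04 (SE), belongs to a printed T3 probe with 8612 on 1 Non-UV 6-4PP array beside 1718 on the other. The next 2, both T5 after G, had steady values: 12202 and 11477 for CPD with 3079 and 2925 for 6-4PP (difference 2.45 ± 0.14, adjusted p = 0.00014), and 13157 and 12831 with 2827 and 2893 (2.43 ± 0.15, adjusted p = 0.00014). The 3 smallest differences, -0.33, -0.33 and -0.09, each include such a bright spot and did not pass.

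Of the 13 members whose CPD effect was not called, 11 lay on the complement and 9 had T3 runs. T3 runs make up 356 of the 616 members, so the 9 do not mark short runs. The CPD effect was called in 97.5% of T3, 100% of T4, 94.6% of T5 and 96.2% of T6 members. The 4 members called lower for 6-4PP were all G-G on the complement, 3 of T4 and 1 of T3. Over all probes 0.203% were called lower. The count of members moved when single 6-4PP arrays were left out, as did the share over all probes. In unadjusted intensities the count was 0, beside 0.11% of all probes. These 4 members had UV intensities with 6-4PP between 1609 and 2118, and Non-UV intensities between 1274 and 2289, against a reference that rose from 1497 and 1246 to 1954 and 1951. Their CPD effects were all called higher. Among members the level after UV with one antibody followed that with the other (Pearson r = 0.84 over the 299 printed members and 0.77 over the 317 complement ones). These points share arrays, flanks and spots, and 557 of the 616 members have a partner that differs in 1 base.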

How the data were processed

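Intensities of 8 arrays (mouse anti-CPD and anti-6-4PP antibodies, UV and Non-UV) were used. Per the file headers, the authors deposited a scanner intensity per spot, a median of the spot's neighbourhood and an adjusted intensity. In the values, the adjusted intensity is the scanner intensity divided by the neighbourhood median, times 1 constant per array. The labels and headers used here name no software, UV dose or staining steps. Members and lists were chosen with earlier results of these data known. Here, the log2 of the deposited adjusted intensity was averaged over the spots of a sequence, and the array's median over the 550 probes without a run was subtracted. Spots without a sequence were left out. All 8 arrays entered 1 fit with limma 3.58.1 (lmFit, eBayes; R 4.3.3). P-values were adjusted with Benjamini-Hochberg over all 122095 sequences, all 428 contrasts of class medians, or all 825 contrasts added after the values were seen, and those under 0.05 passed. Classes needed 10 probes or pairs. Python 3.11.15, numpy 2.4.6 and pandas 2.3.3 prepared the values.

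Tested on simulated data, the CPD comparison of class medians recovered 50% of differences of 0.2 (log2) and 100% of those of 0.5, with 0 false calls over 428 contrasts. For single probes, the CPD comparison recovered 0% at 0.5, 14% at 1 and 66% at 2, with 3 false calls over 122095 sequences. Only 200 sequences and 40 contrasts were changed in the simulated data, and noise was drawn separately for each array. In the real data 70.5% of sequences were called higher for CPD and 50.9% of contrasts were called. The recovered shares therefore do not give the power of the comparisons made here. Sequences were named by rule: every member of T6 or longer, the highest and lowest T3, T4 and T5 per strand and antibody, and the 3 largest and 3 smallest antibody differences. The T3 examples, the length ladder and the 4 members called lower were chosen after their values were seen. P-values measure the spread between the arrays of a group, which may be technical.

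Replicate numbers of the labels were checked for pairing. Deviations of same-numbered arrays correlated within a UV state (0.71 and 0.77) and near 0 between UV and Non-UV arrays. The deviations thus show no pairing of UV with Non-UV arrays by number. The check cannot exclude that such arrays were prepared together, and the labels do not say.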

Additional observations from a re-analysis of the deposited data

Results flagged for a closer look

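In 27 contrasts the UV effects of both antibodies passed the test (limma, Benjamini-Hochberg adjusted p under 0.05) with opposite signs, CPD higher and 6-4PP lower, and the difference between them passed its own test. The contrasts share probes, and all of the 27 but that for the base 3′ of printed T3 runs were added after the values were seen. The opposite signs for the base 3′ of printed T3 runs did not hold throughout. Matched pairs gave 0.30 for CPD and 0.01 for 6-4PP, and the latter did not pass. With class means the 6-4PP value was -0.04 and did not pass. Quantile normalization turned the CPD sign (-0.0056). The values here are the antibody difference, CPD minus 6-4PP, on the log2 scale.

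Thymine-only runs against mixed runs with a TT step differed on the printed strand by 1.39 (T3), 1.33 (T4), 1.60 (T5) and 1.58 (T6), and on the complement by 0.92, 0.89, 0.97 and 1.01. From TT to T5 after A, the difference was 1.04 on the printed strand and 0.63 on the complement. For A against G 3′ of printed T3 runs, where matched pairs did not show opposite signs, it was 0.42.

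In matched pairs of T3 on the printed strand, the thymine run differed from CTT by 1.84 and from TTC by 0.84, and from CTT on the complement by 1.10. In T4 on the printed strand the values were 0.99 against CTTT, 1.58 against TCTT, 1.00 against TTCT and 0.57 against TTTC. On the complement they were 0.67, 0.91, 0.80 and 0.58 in the same order. In T5 on the printed strand they were 0.85 against CTTTT, 1.09 against TCTTT and 1.42 against TTCTT. On the complement they were 0.70 against CTTTT and 0.76 against TTCTT. The cause was not tested.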

How the results depend on the processing

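Centring and normalization decided the counts of calls over members. Against the median of all probes, 354 members were called higher for CPD and 42 for 6-4PP (39.5% and 36.4% of all probes). Quantile normalization gave 318 and 74 (28.6% and 36.4%), 0 for the antibody difference (0% of all probes), and 4, 4 and 0 class contrasts (CPD, 6-4PP, difference). Leaving out 1 array gave median levels of 1.63 to 1.84 for CPD and 0.62 to 0.63 for 6-4PP. The counts of calls moved with the array left out, among members and among all probes. Class means gave median levels of 1.89 for CPD and 0.86 for 6-4PP. The 6-4PP level was 0.64 in unadjusted intensities, 0.60 with 100 added and 0.62 among sequences printed once. With the replicate number as a replicate block, 605, 435 and 506 members were called, beside 71.3%, 86.6% and 11% of all probes. The class contrasts called were 16, 17 and 13. With a replicate block within UV state, added after the data were seen, the difference gave 564 members and 13 contrasts. In that setting 14% of all probes were called the same way.

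Signs turned with quantile normalization for CPD in A against G 3′ of printed T3 (-0.0056), T4 over T3 after A on the complement (-0.0011), and A against G at +5 of T3 (0.018) and +1 of T4 (0.016) on the complement. For 6-4PP they turned in printed T4 over T3 (-0.011), printed T3 over TT after G (-0.029) and printed over complement after G in T3 (-0.14) and T4 (-0.16). For the antibody difference they turned for the 5′ base of printed T5 (0.13; matched 0.18) and T4 over T3 after A on the complement (-0.078). Unadjusted intensities turned 6-4PP of printed T6 over T5 (-0.34) and outer over inner T3 after A on the complement (0.022). Sequences printed once turned outer over inner printed T3 for 6-4PP (-0.066) and the difference (0.10), and the difference of printed T6 over T5 (-0.54). The causes were not tested. The 2 arrays a group and single spots limit what can be said of single members.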
